A study of Mus musculus with 6 samples.

Results

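Voltage-gated sodium and calcium channel genes were followed in nuclear RNA from mouse neural precursor cells labelled Fmr1 WT or Fmr1 KO. The members were chosen by symbol alone: every Scn gene ending in a number and a or b, every gene whose symbol starts with Cacna1 or Cacna2, and Cacnb1 to Cacnb4. The rule found 31 of the 23337 gene rows, and 24 of the 31 had enough counts to be tested. One close relative, the brain sodium channel gene Scn2a, was listed under its retired symbol Scn2a1, which the rule does not reach. It is given below as a neighbour and is not counted among the members.

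Cultures came from the dorsal forebrain of E13.5 embryos and were kept in medium holding 20 ng/ml of EGF and 20 ng/ml of FGF2. They were used at passage 6 to 7 and harvested at about 80% confluency, and RNA was taken from the nuclear fraction only. Each genotype was represented by 3 lines, WT lines 3, 8 and 19 and KO lines 3, 13 and 16, described by the submitters as independent, with 1 library each. The sources used here do not give the strain, the Fmr1 allele or the sex of the lines. Fmr1 is the gene of FMRP, an RNA-binding protein. The comparison asks how nuclear RNA differs between these genotypes.

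Libraries held 18702738 to 26789522 counts, so 1 count was worth 0.0366 to 0.0542 CPM, the counts scaled to the library total and adjusted between libraries by TMM, the trimmed mean of M values. Fmr1 itself did not follow the labels everywhere: it was at 223 to 273.5 CPM in WT, at 188.1 and 153 CPM in KO lines 13 and 16, and at 371 CPM in the library labelled KO line 3. Its log2 fold change was -0.10 (SE 0.29, adjusted p = 0.795) and -0.58 without KO line 3 (adjusted p = 0.00152). Directions below therefore compare the libraries by their labels. Xist, the RNA of the inactive X chromosome, was high (15460 to 20500 CPM) in WT lines 3 and 8 and KO line 3, and at 81.7 CPM or less in the other 3. WT line 19 held 18730 CPM of the ribosomal RNA precursor Rn45s, against 1077 to 2567 CPM elsewhere. The precursor markers Nes and Vim were among the abundant RNAs of both genotypes, at means of 2447 and 2557 CPM in WT and 2145 and 1831 CPM in the libraries labelled KO.

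Voltage-gated sodium channels are built from 1 large pore-forming alpha subunit, which opens on depolarisation and then closes itself within milliseconds, and from small beta subunits that tune gating, carry the channel to the membrane and act as adhesion molecules. Voltage-gated calcium channels have an alpha-1 pore of the L type (Cav1), the P/Q, N or R type (Cav2) or the low-threshold T type (Cav3). The Cav1 and Cav2 pores work with an intracellular beta subunit and an extracellular alpha-2-delta subunit. In the brain these channels are best known from neurons, while calcium entry through L-type and T-type channels also occurs in dividing precursors.

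The alpha genes are close relatives that were counted separately. Over whole transcripts of GENCODE release M21, 8.05% of the 50-base windows of Scn3a occurred without a mismatch in another alpha gene, compared with 0.0527% for Scn8a. The sources used here give no read length, and how far reads were shared between these genes was not tested.

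Among the sodium channel alpha genes, the embryonic brain channel gene Scn3a rose from a trace in the libraries labelled KO. Scn8a, the channel of mature axon initial segments and nodes, supplied most alpha RNA in both genotypes. Over all genes tested 42.3% were called, 21.8% higher and 20.4% lower, by edgeR's quasi-likelihood test with Benjamini-Hochberg adjustment, the test behind every adjusted p below. Values by line are listed for WT lines 3, 8 and 19 and then for the libraries labelled KO lines 3, 13 and 16.

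Scn3a (chromosome 2, 65457118 to 65567627 in GRCm38) was at 0.0731, 0.203 and 0.325 CPM in WT, 12 counts in all. It reached 4.22, 3.38 and 1.501 CPM in the libraries labelled KO, or 194 counts. Its groups did not overlap, and its log2 fold change was 3.98 (SE 0.55, adjusted p = 0.000683). The ratio of pooled counts had a 95% exact binomial interval of 9.03 to 31.8, which covers counting error only. Scn11a, a sodium channel gene of pain-sensing neurons, was at 0.146, 0.203 and 0.434 CPM in WT and at 1.18, 0.888 and 0.515 CPM in the libraries labelled KO. Its log2 fold change was 1.75 (SE 0.49, adjusted p = 0.0189), from 16 and 55 counts. Leaving out WT line 3, WT line 8 or KO line 13 ended this call (adjusted p = 0.0716, 0.0681 and 0.0558). Scn3a and Scn11a passed the filter on low counts only through the libraries labelled KO, so they were tested because they were high there.

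Scn8a was at 169.8, 173 and 165 CPM in WT and at 144, 148 and 121 CPM in the libraries labelled KO, with no overlap. Its log2 fold change of -0.30 (SE 0.11) missed the threshold at an adjusted p of 0.0536, and it passed without KO line 3 (adjusted p = 0.0174). Scn8a also passed with scaling by library size alone, with limma-voom, in the DESeq2 Wald test and without the Rn45s and Xist rows. It stayed short of the threshold in 10 of 16 alternatives. Scn1a, a main channel gene of inhibitory neurons, was at 2.12, 1.82 and 1.63 CPM in WT and at 6.20, 2.45 and 2.02 CPM in the libraries labelled KO. The groups overlapped, and the log2 fold change of 0.91 (adjusted p = 0.106) dropped to 0.26 without KO line 3. It passed with Xist state as a term (1.16, adjusted p = 0.0110) and without KO line 16 (1.20, adjusted p = 0.0334). Scn7a, an atypical member known from glia, was too sparse to test. It was at 0.217 to 0.304 CPM in WT and at 2.35, 0.338 and 0.601 CPM in the libraries labelled KO, so that the high value was again in KO line 3. Scn4a, Scn9a and Scn10a, the channel genes of skeletal muscle and sensory neurons, had 1 to 12 counts over all 6 libraries.

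Scn3a, Scn2a, Scn1a, Scn9a and Scn7a lie in this order within chromosome 2, from 65457118 to 66784914. In this cluster Scn3a was called, while its next neighbour, listed as Scn2a1, was at 4.53, 6.08 and 4.39 CPM in WT and at 7.00, 5.03 and 4.50 CPM in the libraries labelled KO (log2 fold change 0.14, SE 0.22, adjusted p = 0.648). GENCODE lists no exon overlap for any of these genes except Scn9a, where 1.41% of exon bases are shared with Gm13629.

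**Figure D1:**
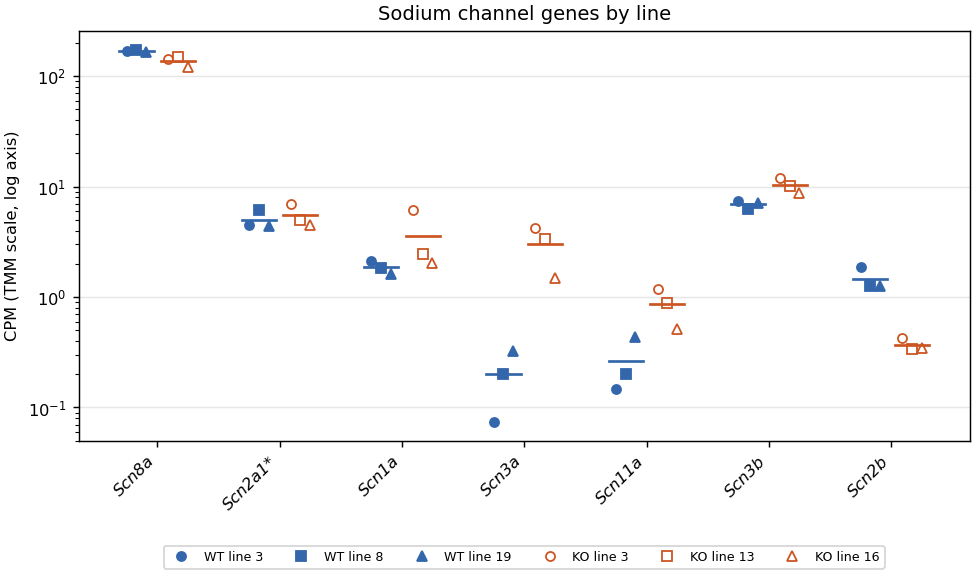
CPM (TMM scale, logarithmic axis) of tested sodium channel genes in each line, with WT as filled and the libraries labelled KO as open symbols, and short bars for the mean of 3 lines. The asterisk marks Scn2a1, which is not a member. Scn2b lies lower in all 3 libraries labelled KO, and Scn3a lies higher, from 1.501 to 4.22 CPM against at most 0.325 CPM in WT.

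Sodium channel beta genes code for single-pass adhesion-like proteins. Scn2b fell from 1.46 ± 0.351 CPM to 0.369 ± 0.0501 CPM (SD, n = 3 each), a log2 fold change of -1.996 (SE 0.31, adjusted p = 0.00128 by edgeR). It had 8 counts in each library labelled KO and passed the filter only through WT. Scn3b moved the other way, from 7.38, 6.23 and 7.15 CPM to 12.02, 10.1 and 8.84 CPM, a smaller change with a log2 fold change of 0.57 (SE 0.16, adjusted p = 0.0200). Leaving out WT line 8 or KO line 13 ended the Scn3b call (adjusted p = 0.0777 and 0.0518). Scn4b, next to Scn2b on chromosome 9, had 12 counts in all and was not tested.

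Levels can be compared between genes per kilobase of merged exons. On this scale the sodium channel alpha genes summed to 13.4 to 14.2 CPM per kilobase in WT and 8.43 to 10.8 in the libraries labelled KO. Scn8a held 73.7% to 81.9% of the sum in WT and 85.0% to 91.0% in the libraries labelled KO.

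Of the 3 tested L-type genes 1 rose, 1 fell and 1 did not pass. Cacna1c, the main L-type pore gene of brain and heart (chromosome 6, 118587240 to 119196418), rose 2.73-fold. It was at 63.9, 64.4 and 50.7 CPM in WT and at 174, 173 and 141 CPM in the libraries labelled KO, with a log2 fold change of 1.45 (SE 0.14, adjusted p = 9.85e-05). The groups were far apart and the library labelled KO line 3 lay with the other libraries of its label. Cacna1d, the other neuronal L-type gene, had means of 3.23 ± 0.468 CPM in WT and 4.35 ± 0.544 CPM (SD, n = 3 each) under the KO label, and did not pass (log2 fold change 0.42, edgeR adjusted p = 0.109). The skeletal muscle pore gene Cacna1s fell from 40 to 15 counts in all (log2 fold change -1.38, SE 0.38, adjusted p = 0.0179). It passed the filter only through WT, and 19.98% of its exon bases overlap Gm37759. Its call ended without WT line 3, KO line 13 or KO line 16 (adjusted p = 0.0922, 0.0527 and 0.0723) and in the DESeq2 Wald test (adjusted p = 0.0888). Cacna1f, the retinal L-type gene, had 13 counts and was not tested.

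Within the Cav2 group, whose channels trigger transmitter release at synapses, the P/Q-type and N-type genes moved in opposite directions. Cacna1a, the P/Q-type pore gene (chromosome 8, 84388440 to 84640246), was at 114, 116 and 144 CPM in WT and at 52.0, 57.4 and 51.1 CPM in the libraries labelled KO. It fell with a log2 fold change of -1.22 (SE 0.12, adjusted p = 0.000138), and 3.81% of its exon bases overlap Gm16183. Cacna1b, the N-type pore gene, was at 27.8, 19.4 and 24.5 CPM in WT and at 42.2, 47.2 and 41.9 CPM in the libraries labelled KO, and rose with a log2 fold change of 0.87 (SE 0.14, adjusted p = 0.00156). Neither gene's groups overlapped. Per kilobase, Cacna1a made up 77.8% to 83.5% of the Cav2 level in WT lines and 51.0% to 51.2% in the libraries labelled KO. Cacna1b took 47.6% to 48.2% there, against 16.1% to 21.8% in WT. The R-type gene Cacna1e was at 0.813 to 1.39 CPM in WT and 1.37 to 2.99 CPM in the libraries labelled KO (log2 fold change 0.81, SE 0.34, adjusted p = 0.0854). Cacna1e passed with Xist state as a term (1.09, adjusted p = 0.00956) and without KO line 16 (1.06, adjusted p = 0.0316), and was at 0.30 with both WT line 19 and KO line 3 left out.

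T-type RNA was led by Cacna1h, which had the highest level per kilobase of all members in both genotypes. Cacna1h was at 393, 339 and 488 CPM in WT and at 438, 667 and 604 CPM in the libraries labelled KO. The groups overlapped at KO line 3, and with a log2 fold change of 0.48 and an SE of 0.18 the gene missed the threshold (adjusted p = 0.0602). It passed when KO line 3 was left out (0.65, adjusted p = 0.00211) or WT line 19 (0.64, adjusted p = 0.0368), and also in the DESeq2 Wald test (0.48, adjusted p = 0.0335) and with Xist state as a term (0.32, adjusted p = 0.0366). Cacna1g, which drives burst firing in thalamus and other regions, rose 2.38-fold with little spread, from 16.5 ± 1.13 CPM to 39.3 ± 1.27 CPM (SD, n = 3 each, log2 fold change 1.25, SE 0.11, edgeR adjusted p = 6.48e-05). Cacna1i was low, at 1.17 to 2.23 CPM in WT and 0.694 to 1.141 CPM in the libraries labelled KO. Its log2 fold change of -0.91 (SE 0.33) lay next to the threshold (adjusted p = 0.0508), and it passed without WT line 3 (adjusted p = 0.0335). Cacna1i also passed with DESeq2 size factors, with scaling by library size alone and without the Rn45s and Xist rows. It stayed short of the threshold in 12 of 16 alternatives.

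**Figure D2:**
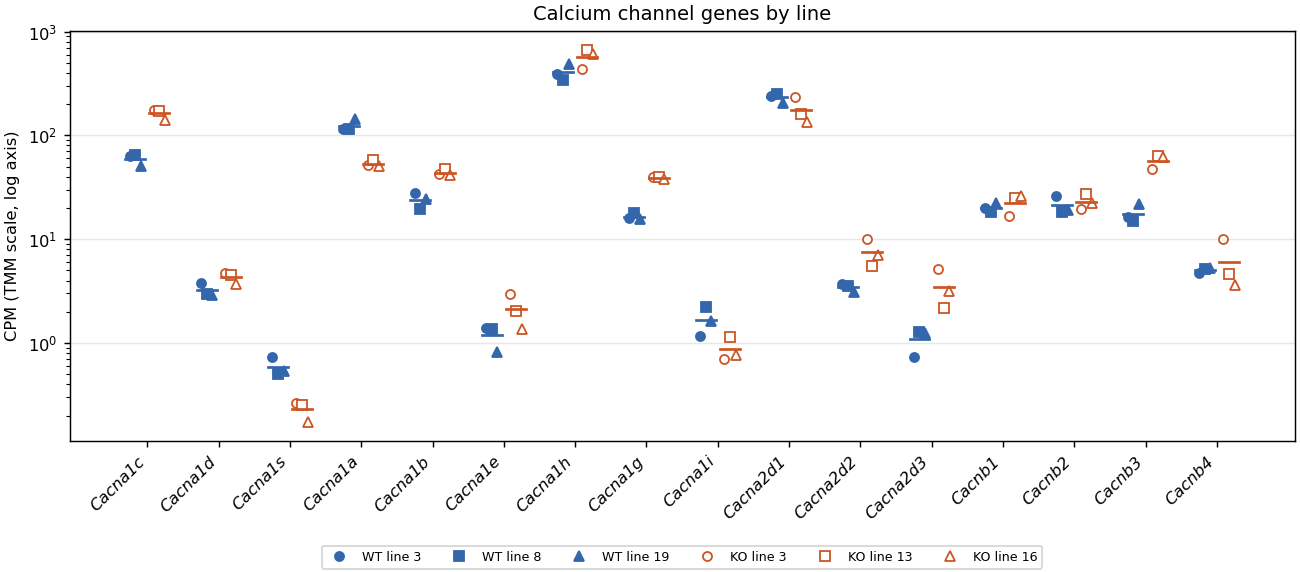
CPM (TMM scale, logarithmic axis) of the 16 tested calcium channel genes in each line, with WT filled, the libraries labelled KO open, and bars for the mean of 3 lines. Cacna1c, Cacna1b, Cacna1g and Cacnb3 lie higher and Cacna1a lower in all 3 libraries labelled KO, while Cacnb4 and Cacna2d1 are highest among these libraries in KO line 3, at 10.04 and 235 CPM.

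Alpha-2-delta genes code for the extracellular subunits that bring calcium channels to the surface and that bind gabapentin in the case of the first members. Cacna2d1 carried 96.7% to 97.2% of the summed level per kilobase in WT and 89.5% to 93.2% in the libraries labelled KO. It was at 239, 251 and 207 CPM in WT and at 235, 159.9 and 133 CPM in the libraries labelled KO. KO line 3 thus lay within the WT range and the other libraries labelled KO below it. With a log2 fold change of -0.40 and an SE of 0.20 it missed the threshold (adjusted p = 0.127), and without KO line 3 it was -0.66 (adjusted p = 0.000366). Cacna2d2 and Cacna2d3 rose. Cacna2d2, at 3.69, 3.54 and 3.09 CPM in WT, reached 9.99, 5.54 and 6.99 CPM in the libraries labelled KO (log2 fold change 1.11, SE 0.23, adjusted p = 0.00519). Cacna2d3 went from 0.731, 1.27 and 1.25 CPM to 5.13, 2.16 and 3.17 CPM (log2 fold change 1.70, SE 0.37, adjusted p = 0.00612). Cacna2d4 had 7 counts in WT and 3 in the libraries labelled KO and was not tested.

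Of the 4 calcium channel beta genes, whose products hold the alpha-1 pore at the membrane from the inside, Cacnb3 alone was called. Cacnb3 (chromosome 15, 98630840 to 98644529) was at 16.4, 14.9 and 21.6 CPM in WT and at 47.2, 62.9 and 61.5 CPM in the libraries labelled KO. It rose with a log2 fold change of 1.70 (SE 0.17, adjusted p = 0.000136). Cacnb1 and Cacnb2 were at means of 20.1 and 21.3 CPM in WT and 22.4 and 23.1 CPM in the libraries labelled KO, with log2 fold changes of 0.16 (SE 0.18) and 0.11 (SE 0.18). Without KO line 3 Cacnb1 passed at 0.34 (adjusted p = 0.0353). Cacnb4 was at 4.75 to 5.31 CPM in WT, at 10.04 CPM in KO line 3, and at 4.61 and 3.60 CPM in the other libraries labelled KO. Its log2 fold change was 0.25 (adjusted p = 0.579) and -0.29 without KO line 3 (adjusted p = 0.225). Per kilobase, Cacnb3 made up 37.1% to 43.7% of the beta level in WT and 65.2% to 66.3% in the libraries labelled KO, where the summed level was 18.04 to 23.7 CPM per kilobase against 9.70 to 12.3 in WT.

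**Figure D3:**
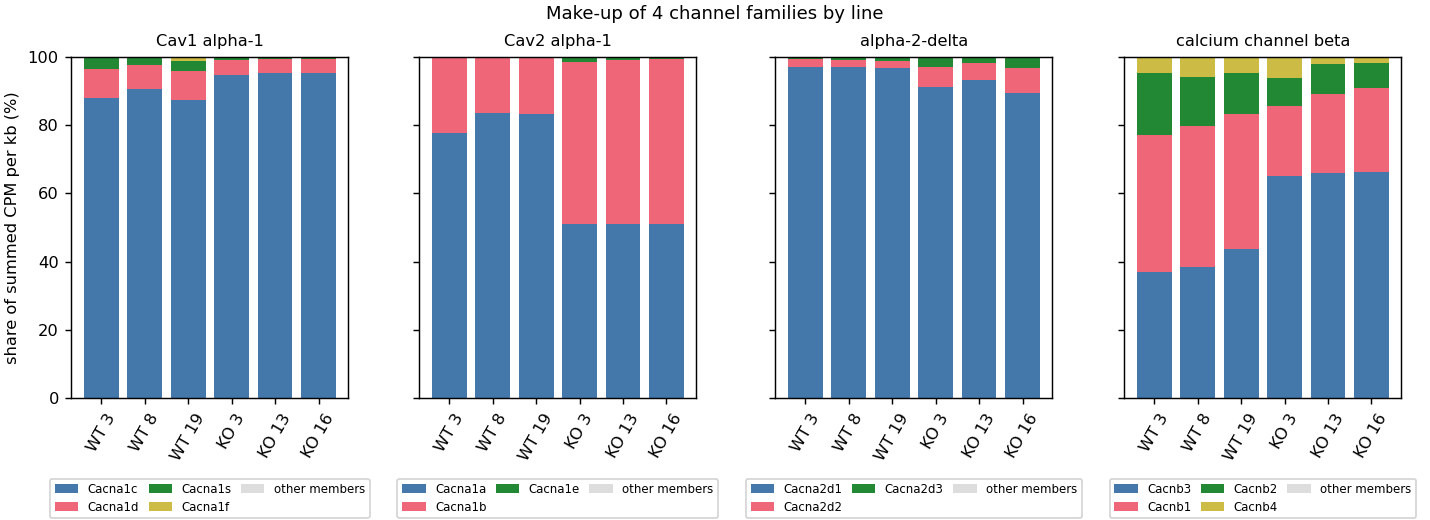
Share (%) of each gene in the summed CPM per kilobase of its family, by line, for the Cav1 and Cav2 pore genes, the alpha-2-delta genes and the calcium channel beta genes, with members under 1% in every line pooled in grey. In the Cav2 panel Cacna1a holds 77.8% to 83.5% in WT and 51.0% to 51.2% in the libraries labelled KO, and in the beta panel Cacnb3 goes from 37.1% to 43.7% in WT to 65.2% to 66.3%.

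Across Scn8a and the calcium channel genes, the order of levels per kilobase changed below its leader. In WT the means ran from Cacna1h (41.7 CPM per kilobase) through Cacna2d1 (18.7) to Cacna1a (10.9) and Scn8a (10.7). The last pair had overlapping line values. In the libraries labelled KO Cacna1h (58.3) was followed by Cacnb3 (14.3) and Cacna2d1 (14.2), whose values overlapped, and then by Scn8a (8.74) and Cacna1c (7.68), which overlapped as well. Exon lengths are the merged exons of all GENCODE transcripts, so genes with many unused exons are understated on this scale.

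Taking the 24 tested members together, 14 (58.3%) were called, 9 higher and 5 lower, where 42.3% of all tested genes were called. The 2 genotypes had separate ranges in 16 members (66.7%), against 54.3% of all tested genes. The libraries labelled KO lay wholly above WT in 9 members and wholly below in 7, against 28.6% and 25.7% of all tested genes. Changes of at least 2-fold were called in 12 members (50%), 7 higher and 5 lower, against 14.1% of all tested genes. The median log2 fold change was 0.45 in the members and 0.01 in all tested genes, and the median of its absolute size was 1.01 and 0.37. Because 4 of the 24 (Scn3a, Scn11a, Scn2b and Cacna1s) were tested through 1 genotype only, these shares describe the tested members and not all 31. All 4 count among the 14 called, the 16 with separate ranges and the 12 with 2-fold changes, so the filter itself adds to these shares. Tested members are long genes, with a median span of 120 kb against 24.6 kb for the 12583 tested genes with a GENCODE span. Both directions held short and long genes: those that rose spanned 13.7 kb (Cacnb3) to 816.9 kb (Cacna2d3), and those that fell included Scn2b with 12.3 kb and Cacna1a with 251.8 kb. The median span was 110 kb in the 9 that rose and 67.1 kb in the 5 that fell. A link between span and direction was not tested.

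**Figure D4:**
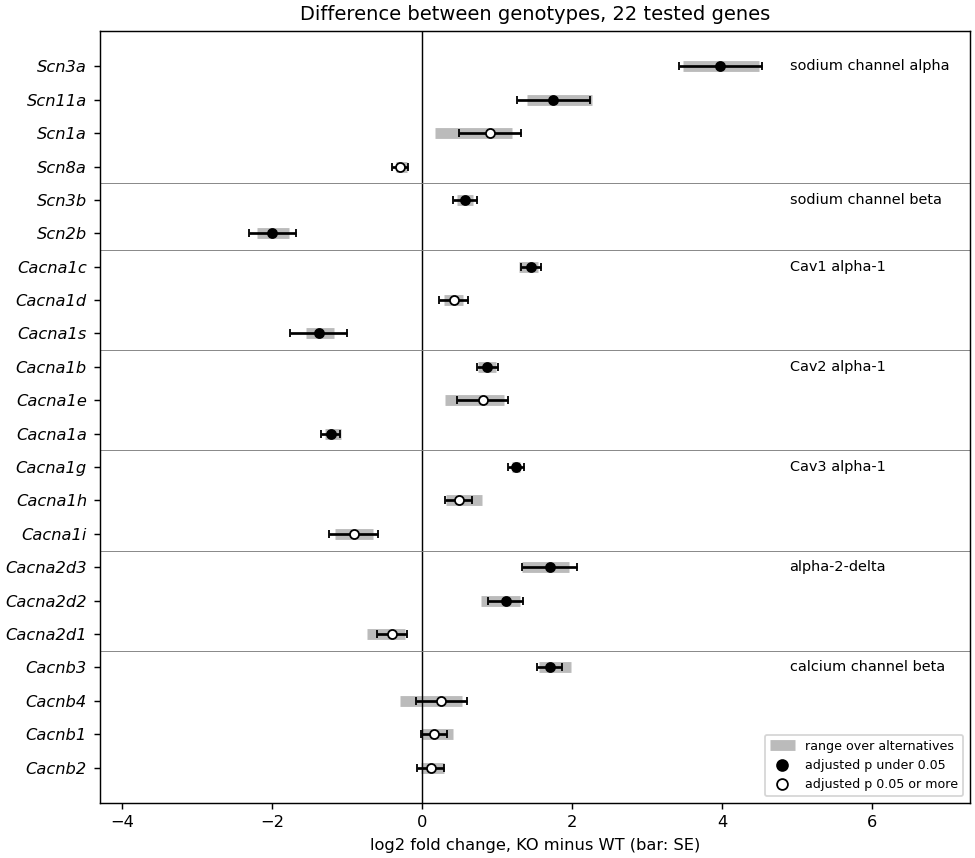
Log2 fold change (KO minus WT) of 22 tested members by family, with the SE as bars, filled points for an adjusted p under 0.05, and grey bands for the range over the other settings and left-out libraries. Scn3a (3.98) and Scn2b (-1.996) mark the ends, and the bands of Cacnb4 and Cacnb2 cross zero.

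None of the 14 called members had overlapping groups. The same direction among Xist-high lines (2 WT, 1 labelled KO) and among Xist-low lines (1 WT, 2 labelled KO) was thereby fixed. It is no separate evidence. With Xist state as a term beside genotype all 14 calls were kept, and without KO line 3 they were kept as well. In the fit without KO line 3, 11 members were called higher and 7 lower. Of all 14182 genes tested in that fit, 3666 were called higher and 3944 lower. The main fit had 3040 and 2844 of 13925. Without KO line 3 Scn3a was at a log2 fold change of 3.68, Cacna1c at 1.40 and Cacnb3 at 1.82. Sizes varied between the Xist states in some members: the log2 ratio of Scn3a was 4.94 in Xist-high and 2.91 in Xist-low lines and that of Scn11a 2.75 and 0.69, while Scn2b was at -1.87 in both. With 1 or 2 lines on each side these differences were not tested.

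Promoter windows, from 250 bases before to 50 bases after a RefSeq start in GRCm38.p6, were found for 23 of the 31 members, with 32 windows in all. The windows of 3 called members are printed as examples of a GC-rich and an AT-rich start; they were chosen after their composition was seen and do not stand for the members that rose or fell. Capitals mark matches on either strand to the GC box GGGCGG and to CCAAT. For Cacna1c and Cacnb3, which have 3 and 2 windows, the one with the most CpG sites is shown, and the others were at 51.3% to 59.7% GC; the start in use in these cells was not measured.
Cacna1c, chr6:119108446-119108745, - strand: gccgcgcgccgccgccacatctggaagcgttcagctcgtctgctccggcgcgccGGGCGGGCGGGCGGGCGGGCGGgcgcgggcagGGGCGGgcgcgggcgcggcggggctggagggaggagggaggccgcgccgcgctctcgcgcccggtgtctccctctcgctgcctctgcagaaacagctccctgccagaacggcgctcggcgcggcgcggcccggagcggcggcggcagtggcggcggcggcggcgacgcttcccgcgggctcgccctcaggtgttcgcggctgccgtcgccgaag
Cacnb3, chr15:98634517-98634816, + strand: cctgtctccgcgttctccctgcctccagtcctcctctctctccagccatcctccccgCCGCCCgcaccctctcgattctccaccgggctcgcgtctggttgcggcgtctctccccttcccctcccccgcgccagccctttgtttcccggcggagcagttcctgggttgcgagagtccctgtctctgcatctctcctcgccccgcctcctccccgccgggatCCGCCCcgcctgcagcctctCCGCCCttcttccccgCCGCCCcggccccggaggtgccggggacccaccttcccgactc
Scn2b, chr9:45117626-45117925, + strand: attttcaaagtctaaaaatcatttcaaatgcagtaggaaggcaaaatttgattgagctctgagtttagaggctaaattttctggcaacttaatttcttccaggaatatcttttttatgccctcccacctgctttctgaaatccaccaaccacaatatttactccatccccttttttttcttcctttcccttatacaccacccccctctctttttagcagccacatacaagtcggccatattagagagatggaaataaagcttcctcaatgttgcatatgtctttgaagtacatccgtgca
GC content was 81.3% in the Cacna1c window, 72.0% in that of Cacnb3 and 38.3% in that of Scn2b, and the mean over all 32851 windows was 53.8%. The windows held 57, 29 and 2 CpG sites. Only 8 called members have a window, 6 that rose and 2 that fell. Of those that rose, Scn11a was at 50.3% GC, Cacna1b at 72.3%, Cacna2d2 at 75.7% and Cacna2d3 at 81.3%, and Cacna1s, the other that fell, was at 63.0%. GGGCGG occurred in 14 of the 32 member windows and in 35.7% of all windows, and CCAAT in 8 of 32 and in 37.4%. The RE1 element, through which the repressor REST acts on neuronal genes, was searched by parts. Its left part TTCAGCACC occurred in 0 of 32 member windows and 0.371% of all, and its right part GGACAGCG in 1 of 32, that of Cacnb1, and 1.26% of all. At shares this low, 32 windows could hardly hold a match, so the search cannot tell whether members have RE1 elements. Inexact matches, sites outside the windows and the 8 members without a window were not searched. TATAAA occurred in 1 of 32 member windows, the first of Cacna1d, and in 13.6% of all. Each motif was searched on both strands, and none contains another.

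Genes of proteins that work with sodium channels were taken from a list of 22, of which 20 were in the files and tested. Of these 9 rose, 3 fell and 8 did not pass, so 60% were called against 42.3% of all tested genes, with a median log2 fold change of 0.27 against 0.01. Ank3, the ankyrin that gathers sodium channels at the axon initial segment, fell from 114 ± 5.11 to 26.9 ± 6.61 CPM (SD, n = 3 each, log2 fold change -2.08). The others that fell were the intracellular FGF gene Fgf11 (-0.93) and the adhesion gene Nfasc (-0.74). Among those that rose, Tnr, an extracellular matrix protein that binds beta subunits, went from 3.91 to 21.9 CPM, and the intracellular FGF genes Fgf13 and Fgf12 had log2 fold changes of 2.90 and 2.28.

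Of 40 calcium channel partners 35 were tested: 11 rose, 8 fell and 16 did not pass. This is 54.3% called against 42.3% of all tested genes, with a median log2 fold change of 0.23. Ryr3, a calcium release channel of the endoplasmic reticulum, rose from 7.68 ± 3.72 to 99.75 ± 32.7 CPM (SD, n = 3 each, log2 fold change 3.70), and Jph4, which ties the endoplasmic reticulum to the plasma membrane, from 3.29 to 13.9 CPM. The Cacng genes, listed here by symbol, were divided: Cacng5 fell from 106 to 24.9 CPM (log2 fold change -2.09), while Cacng4 rose from 3.93 to 12.9 CPM (1.70). Whether Cacng products work with calcium channels in these cells was not tested. Cacng8 fell from 60.7 to 37.9 CPM (-0.68), and Cacng7 did not pass. The thrombospondins, ligands of the Cacna2d1 product, were divided as well. Thbs2 fell from 105 to 8.82 CPM (-3.58), while Thbs1 rose from 2.16 to 11.02 CPM (2.34). Cacng4, Cacng7, Cacng8 and Thbs1 were named after their values were seen. Of 15 genes of related cation channels 10 were tested, 3 rose and 1 fell, and the 40% called lay near the 42.3% of all tested genes. The genes that rose, Fam155a, Unc79 and Unc80 (log2 fold changes 2.94, 0.88 and 0.99), code for subunits of the sodium leak channel complex, and the one that fell was the endolysosomal channel gene Tpcn1 (-0.58). The leak channel gene Nalcn, named after its value was seen, did not pass (log2 fold change 0.53, SE 0.22, adjusted p = 0.0809).

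In the list for REST and its co-repressors 10 of 15 genes rose, 1 fell and 4 did not pass, where 21.8% of all tested genes were higher and 20.4% lower. The median log2 fold change was 0.37. Rcor2, a corepressor, went from 27.02 to 66.8 CPM (log2 fold change 1.31), the small phosphatase genes Ctdspl and Ctdsp1 had log2 fold changes of 0.76 and 0.55, and the co-repressor gene Sin3b fell by 0.64 on the log2 scale. Rest itself, named after its value was seen, rose with a log2 fold change of 0.40, from 41.3 to 54.4 CPM.

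Marker lists of cell types that such cultures could hold were counted, to be read against the 42.3% of all tested genes that were called, 21.8% higher and 20.4% lower. In a bulk sample, fewer cells of a type and less RNA per cell cannot be told apart. Neuronal markers summed to 169 to 216 CPM in WT and 242.5 to 298 CPM in the libraries labelled KO, with 4 of 11 tested higher and 0 lower (36.4% called). Most of the difference in this sum lay in Gap43, with means of 73.1 and 150.3 CPM. Dcx (0.639 and 11.3 CPM), Snap25 (1.04 and 6.62 CPM) and Elavl3 (16.75 and 24.5 CPM) were also called higher. Elavl4 (73.8 and 54.8 CPM), Nefl and Nefm were lower but did not pass. Markers of the oligodendrocyte lineage summed to 789.5 to 849 and 1233 to 1451 CPM, with 6 of 10 higher and 1 lower. Astrocyte markers summed to 972 to 1184 and 363 to 451 CPM, with 0 of 11 higher and 7 lower. Muscle markers were sparse, at 3.36 to 4.095 and 14.1 to 16.6 CPM, with 3 of 4 tested higher, 0 lower and Myf5 at 0 counts in every library. The muscle pore gene Cacna1s was lower in the same libraries, but with only 40 and 15 counts and a call that ended in some alternatives. Markers of neural crest and sensory neurons summed to 29.9 to 33.0 and 16.8 to 19.2 CPM, with 2 of 3 tested lower, and Foxd3 and Prdm12 at 0 counts. Of 12 precursor markers 1 was higher (Mki67) and 2 were lower (Vim and Slc1a3), so that 25% were called. The part of these cell types in the channel results was not tested.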

How the data were processed

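For each of the 6 libraries the authors deposited a list of whole-number counts for 23337 gene symbols, without normalization. DESeq2, HTSeq 0.7.2, STAR and cutadapt 1.14 and the build mm10 appear in the submitters' processing notes; the annotation and the strand setting were not given in the sources used here, and antisense reads cannot be told apart. The test was that of edgeR 4.0.16, run in R 4.3.3 (filterByExpr with a minimum count of 10, TMM scaling, robust quasi-likelihood fit of genotype over 3 and 3 libraries). Two-sided p-values were adjusted over 13925 genes by the Benjamini-Hochberg method, with a threshold of 0.05. The SE came from the F statistic. The procedure was also run on simulated data with far fewer changed genes than were called here. No Xist states or outlying libraries were simulated, so that run does not vouch for the calls in these data. Intervals cover counting error only, since counts were pooled over the lines and the spread between lines was left out. Reads are not independent molecules, so even this error can be understated. The lines are described as independent, but p-values still measure only the spread between these 6 samples. Replicate libraries differed by more than sampling noise (chi-square per degree of freedom 11.3 to 96.8).

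The members, families and partner and marker lists were chosen with earlier results of these data known. Members with a mean of at least 1 CPM in the higher genotype were to be named with their values, along with called members below it. From each partner list up to 4 genes by smallest p were named, with any on the side of a list where 5 or fewer were called. Positions, exon lengths and transcripts came from GENCODE M21 and promoters from RefSeq, both GRCm38, the assembly of mm10. Alternatives were other scalings, filters and tools (limma-voom with limma 3.58.1, DESeq2 1.42.0), a threshold of 0.10, an Xist covariate (at least 1000 CPM) and left-out libraries or rows. Some members are counted in the totals and not reported here.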

Additional observations from a re-analysis of the deposited data

How the results depend on the processing

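Of the 14 called members, 11 kept their call and direction in each of 16 alternatives to the fit; Scn11a, Scn3b and Cacna1s lost theirs in some, as given with their values, and Scn11a and Cacna1s were not tested with a filter of 1 CPM in 3 libraries. Of the 10 members that were not called, 7 passed in some alternative. The number of members called ranged from 7 to 12 higher and from 4 to 7 lower. Over all genes the number called higher was 3040 and ran from 1994 (without WT line 3) to 3666 when each library was left out in turn. Signs turned only in values short of the threshold: Cacnb4 (0.25) was at -0.29 without KO line 3 and -0.26 with WT line 19 left out too, the neighbour Scn2a1 at -0.06 and -0.14 in the same fits, and Cacnb2 at -0.02 without KO line 13. Over the left-out libraries Cacnb4 ran from -0.29 to 0.53, Scn2a1 from -0.06 to 0.30 and Cacnb2 from -0.02 to 0.29. Fmr1, at -0.10, was at 0.04 without KO line 13 and 0.14 without KO line 16, and at -0.58 without KO line 3. These fits also had fewer libraries, and the cause of the turned signs was not tested. No paired analysis was possible because the 2 genotypes share only 1 line number. Depth limits the members with few counts: 7 of 31 could not be tested, and values under 0.163 CPM can rest on 3 counts or fewer.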
